A study of Mus musculus with 8 samples.

Results

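The genes described here encode proteins of the extracellular matrix, and their RNA was counted in the medial prefrontal cortex, a frontal region of mouse cortex. The set holds protein-coding genes whose GENCODE M21 symbol names a collagen chain, a laminin chain, a fibulin or a latent TGF-beta binding protein, together with Mgp, Dcn, Lum, Bgn, Fn1 and Islr. A gene was kept where at least 10 counts were found in 4 or more of the 8 libraries. Of 69 genes with such a symbol 68 met this minimum, out of 54446 genes in the table. Col10a1, a collagen of growth plate cartilage, was the exception, with 0 to 6 counts in each library. The members nearest the minimum were Ltbp2, Col4a3 and Col9a1, whose fourth-highest libraries held 24, 28 and 28 counts.

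The study asks what a raised dose of Ino80e, which belongs to the INO80 chromatin remodeller and lies in a schizophrenia risk region, does in this part of the cortex. Of its 8 libraries, 4 carry the label Ino80e overexpression and 4 the label wild type, and the tissue is the same. The design text names stereotaxic delivery of an adeno-associated virus (AAV) as the means of altering expression. No source used here gives the strain, age, sex, virus promoter or time after delivery, says whether the wild-type mice were injected, or ties each library to its own mouse. The p-values below therefore describe spread among libraries, part of which may be technical.

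Collagens are triple-helical proteins. Fibrillar collagens form the cables of connective tissue, type IV collagen and laminins form the sheet-like basement membrane around vessels and under the pia, and type VI collagen forms beaded filaments next to it. In the brain these proteins are made mainly by vascular, perivascular and meningeal cells, while the space between neurons is filled largely by hyaluronan and proteoglycans. Fibulins and latent TGF-beta binding proteins attach to microfibrils, and some of the latter, though not all, hold the growth factor TGF-beta in store.

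Library totals ran from 44762378 to 60490153 counts, and matrix genes took 0.0895 to 0.113% of them. Ino80e stood at 74.1 and 45.0 CPM (counts scaled to a common library size, here by TMM, a trimmed mean over genes) in overexpression replicates 1 and 4. Replicates 2 and 3, at 23.4 and 23.3 CPM, lay within the wild-type range of 19.5 to 25.5 CPM and so went against their label (all 4 against 4: log2 fold change 0.91, SE 0.42, edgeR adjusted p = 0.51). Directions below are therefore those of the libraries labelled overexpression. The main counts and the values of a few genes are also given without replicates 2 and 3. GC-rich transcripts were higher in those libraries in general: the median log2 fold change was 0.09 in the quartile of genes richest in GC and -0.09 in the poorest, over genes of at least 1 CPM. The matrix genes had a median transcript GC content of 53.5%, against 49.9% for all genes tested, so the main counts and many of the values are also given with a correction for GC content. The cortical neuron markers Camk2a (4944 CPM) and Slc17a7 (1961 CPM in wild type) were abundant. Choroid plexus markers summed to 1186 CPM in wild-type replicate 4, to 116 CPM in overexpression replicate 3 and 115 CPM in wild-type replicate 3, and to 10.1 to 20.3 CPM in the other 5 libraries.

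Levels between genes were compared as CPM per kilobase of exon, where exons of all annotated transcripts were merged, which understates genes with long rare exons. Ltbp4, which anchors latent TGF-beta and organises elastic fibres, had the highest level at 15.2 ± 1.21 CPM per kilobase (SD, n = 8 libraries). It was followed by the laminin chain gene Lamb2 at 8.95 ± 0.825, the leucine-rich repeat gene Islr at 8.44 ± 1.37, the fibronectin gene Fn1 at 8.38 ± 1.08, the type IV collagen gene Col4a2 at 8.11 ± 0.655, Col6a1 at 7.29 ± 1.09, the matrix Gla protein gene Mgp at 6.80 ± 1.50, Col4a1 at 6.21 ± 0.360 and Lamc1 at 6.06 ± 0.456. Only Ltbp4 stood clear of its neighbour, and each other pair of neighbours in that order lay within its spread. These 9 genes were the members above 5 CPM per kilobase, 27 lay between 1 and 5, 20 between 0.25 and 1, and 12 below 0.25. The lowest were Ltbp2 at 0.0563 ± 0.0330, Col4a3 at 0.0654 ± 0.0424 and the cartilage collagen gene Col2a1 at 0.0839 ± 0.0197. Basement membrane chains thus held 4 of the 9 highest places (Lamb2, Col4a2, Col4a1 and Lamc1), while Col4a3, a chain of kidney basement membrane, and Col2a1 were near the lower end.

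**Figure D1:**
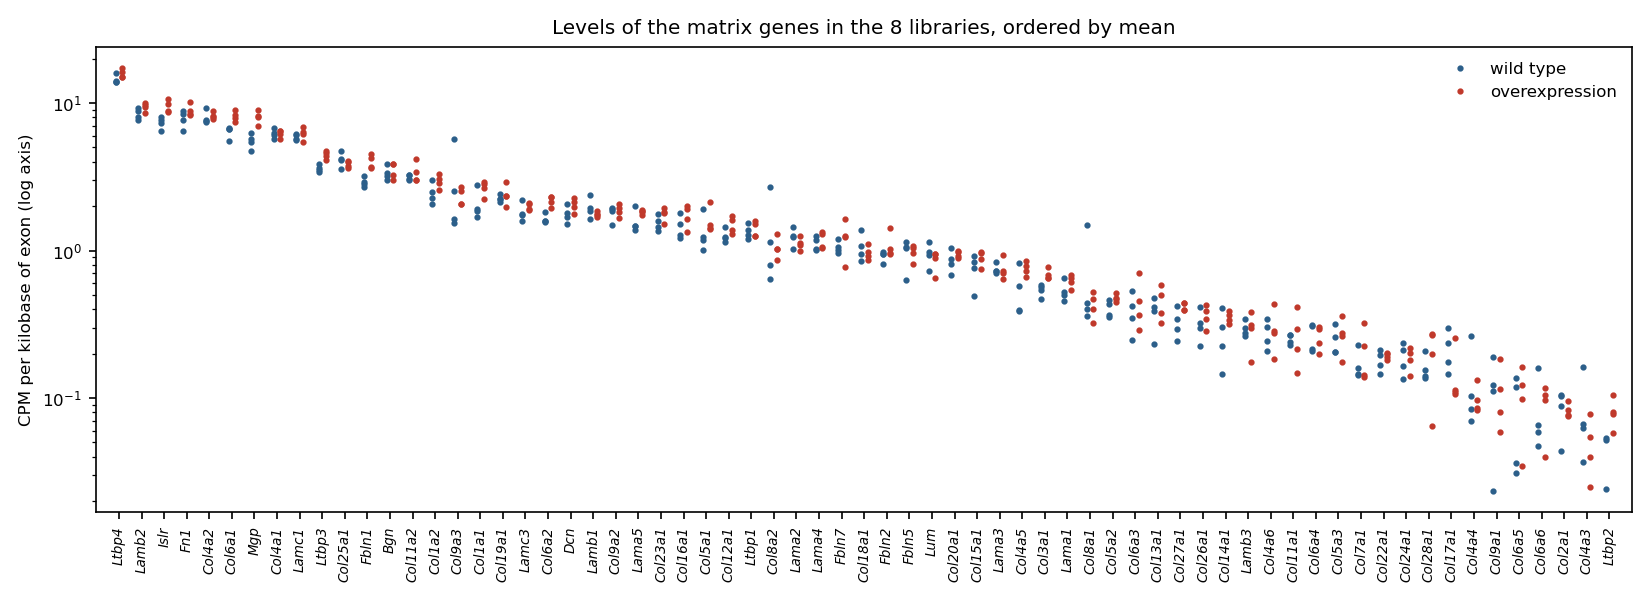
Levels of 67 matrix genes in CPM per kilobase of exon (log axis), ordered by their mean, with 1 point per library (blue wild type, red labelled overexpression; libraries at 0 are not drawn). Ltbp4 leads and Ltbp2 is lowest; 1 wild-type library stands far above the others for Col8a1, Col8a2 and Col9a3.

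No matrix gene passed the test between the groups (edgeR quasi-likelihood test, Benjamini-Hochberg adjusted p under 0.05 over 17636 genes). The count was 0 of 68, where 6 genes or 0.034% of all genes tested passed, 0.0113% higher and 0.0227% lower. The log2 fold change, overexpression minus wild type, was above 0 for 51 of the 68, where 50.5% of all genes were, and its median was 0.14, against 0.0016 for all genes. At an unadjusted p under 0.05 there were 17 members with a value above 0, where 5.24% of all genes tested were in that class, and 0 with a value below 0, where 5.43% were. The 17 became 10 without overexpression replicate 4 (4.88% of all genes) and 11 without wild-type replicate 1 (4.49%). They were 12 to 21 with another library left out (3.73 to 6.59%). The 0 below became 1 without overexpression replicate 4 or wild-type replicate 3, and 2 without wild-type replicate 1. In 8 members all 4 libraries labelled overexpression lay above all 4 wild-type libraries in CPM, as in 2.82% of all genes, and in 0 they all lay below, as in 3.02%. These 8 were Fbln1, Ltbp3, Col6a1, Col6a2, Mgp, Islr, Col3a1 and Ltbp2. In RNA of whole tissue, a change in the number of cells of a type and a change in RNA per cell cannot be told apart.

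The members' shift was not carried by all libraries alike. The median log2 shift of the 68 genes against the wild-type mean was 0.16, 0.16, 0.0866 and 0.25 in overexpression replicates 1 to 4. In wild-type replicates 1 to 4 it was -0.12, -0.0591, 0.14 and 0.01. The groups overlapped, because wild-type replicate 3 stood above overexpression replicate 3. Overexpression replicate 4 held the highest level of 20 of the 68 genes, and wild-type replicate 1 the lowest of 21 and the highest of 0.

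**Figure D2:**
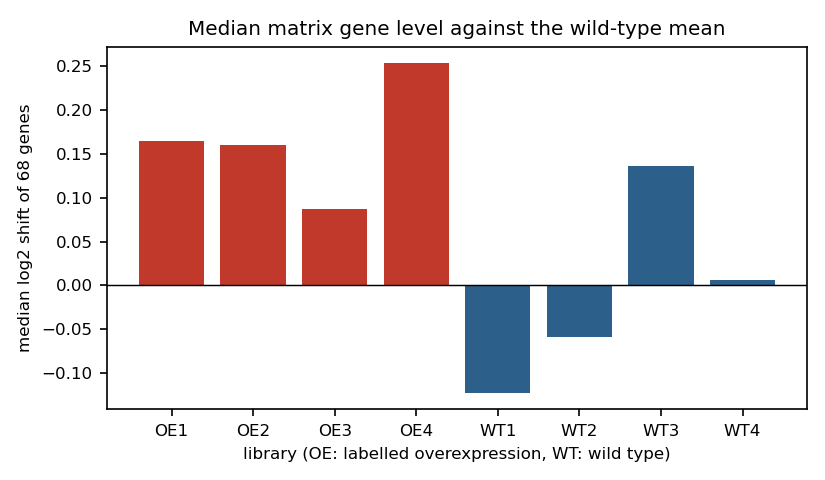
Median log2 shift of the 68 matrix genes in each library against the wild-type mean (bars; red labelled overexpression, blue wild type). The libraries labelled overexpression lie above 0, as wild-type replicates 3 and 4 do, at 0.14 and 0.01.

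With the GC correction, 47 of 68 members were above 0, where 47.6% of all genes were, with a median of 0.0852. At an unadjusted p under 0.05, 13 members then lay above 0, where 2.31% of all genes did, and 0 below, where 2.34% did. Among members, the 34 richer in GC had a median log2 fold change of 0.21 and the 34 poorer one of 0.0905. Without overexpression replicates 2 and 3, 54 of 68 were above 0 (49.9% of all genes), the median was 0.21, and 15 members had an unadjusted p under 0.05 with a value above 0 (3.64% of all genes). In that fit 0 members passed at an edgeR adjusted p under 0.05. For the genes without overlap the log2 fold change was then 0.49 for Fbln1, 0.37 for Ltbp3, 0.40 for Col6a1 and 0.44 for Col6a2. It was 0.45 for Mgp, 0.40 for Islr, 0.31 for Col3a1 and 1.26 for Ltbp2. Leaving out overexpression replicate 4 gave 45 members above 0 and a median of 0.0748.

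DESeq2 called 6 members, all higher in the libraries labelled overexpression (0.195% of the 13866 genes with an adjusted p were called higher and 0.317% in either direction). They were Fbln1, Ltbp3, Col6a1, Col6a2, Mgp and Islr, which also had the lowest edgeR p among the members. Limma-voom called 0 members (0.0113% of all genes). edgeR without the low-count filter called 8 (0.277% of the 29946 genes then tested), among them these 6 and Col1a1.

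Promoter windows from RefSeq (GRCm38.p6, 250 bases before to 50 after the start) were found for 49 of the 68 members. Those not matched included Col12a1, Col14a1, Col1a1, Col22a1, Col26a1, Col2a1, Col4a3, Col5a2, Col9a3, Dcn, Fn1, Lama1, Lama3, Lama4, Lamc1, Lamc3, Lum and Mgp. The windows of Fbln1, Ltbp3, Col6a1, Col6a2 and Islr are shown because these genes had the lowest p and did not overlap. Capitals mark matches on either strand to 4 short motifs: CCAAT (the CCAAT box), TATAAA (the TATA box), GGGCGG (the GC box of Sp1) and CAGACA (which holds the core bound by Smad proteins). No 2 of these motifs overlap in the windows shown.
Fbln1 (chr15:85205699-85205998, plus strand): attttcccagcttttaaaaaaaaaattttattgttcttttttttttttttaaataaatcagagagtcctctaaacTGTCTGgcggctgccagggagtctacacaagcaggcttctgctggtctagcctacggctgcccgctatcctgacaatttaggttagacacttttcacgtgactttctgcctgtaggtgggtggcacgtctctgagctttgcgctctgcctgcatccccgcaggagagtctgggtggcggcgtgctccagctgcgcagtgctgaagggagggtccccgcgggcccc
Ltbp3 (chr19:5740650-5740949, plus strand): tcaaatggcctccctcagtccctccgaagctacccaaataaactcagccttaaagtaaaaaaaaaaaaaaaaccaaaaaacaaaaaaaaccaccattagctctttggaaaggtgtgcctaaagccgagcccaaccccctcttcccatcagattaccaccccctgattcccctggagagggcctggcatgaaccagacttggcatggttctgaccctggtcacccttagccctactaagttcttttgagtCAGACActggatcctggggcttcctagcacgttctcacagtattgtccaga
Col6a1 (chr10:76725995-76726294, minus strand): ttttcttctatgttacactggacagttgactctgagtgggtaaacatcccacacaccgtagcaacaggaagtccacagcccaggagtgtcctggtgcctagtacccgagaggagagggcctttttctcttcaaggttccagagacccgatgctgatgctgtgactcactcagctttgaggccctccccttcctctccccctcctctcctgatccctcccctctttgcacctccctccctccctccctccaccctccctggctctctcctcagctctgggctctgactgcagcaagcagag
Col6a2 (chr10:76623581-76623880, minus strand): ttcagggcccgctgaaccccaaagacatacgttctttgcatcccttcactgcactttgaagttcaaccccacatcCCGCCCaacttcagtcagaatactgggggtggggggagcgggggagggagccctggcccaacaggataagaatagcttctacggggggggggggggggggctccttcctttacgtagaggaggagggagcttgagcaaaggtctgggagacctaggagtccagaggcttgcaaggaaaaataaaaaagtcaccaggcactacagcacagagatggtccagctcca
Islr (chr9:58158505-58158804, minus strand): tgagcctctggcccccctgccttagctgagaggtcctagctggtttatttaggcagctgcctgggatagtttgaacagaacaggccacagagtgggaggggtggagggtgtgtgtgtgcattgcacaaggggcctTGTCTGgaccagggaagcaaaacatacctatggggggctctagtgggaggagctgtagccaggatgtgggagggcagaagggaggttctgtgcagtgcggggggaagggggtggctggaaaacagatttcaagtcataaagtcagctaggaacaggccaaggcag
No motif was in all 5. Fbln1, Ltbp3 and Islr each held 1 match to CAGACA or its reverse complement, Col6a2 held 1 to GGGCGG, Col6a1 held 0 to all 4, and TATAAA and CCAAT were in 0 of the 5. Over all 49 windows of members, GGGCGG was in 61.2%, against 36.0% of 27025 promoters of all genes. The shares were 34.7% against 37.9% for CCAAT, 8.16% against 14.2% for TATAAA and 26.5% against 21.0% for CAGACA. These are matches of letters and not binding sites. The 49 windows of members had a median GC content of 60%, and the promoters of all genes were not matched to them in GC.

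**Figure D3:**
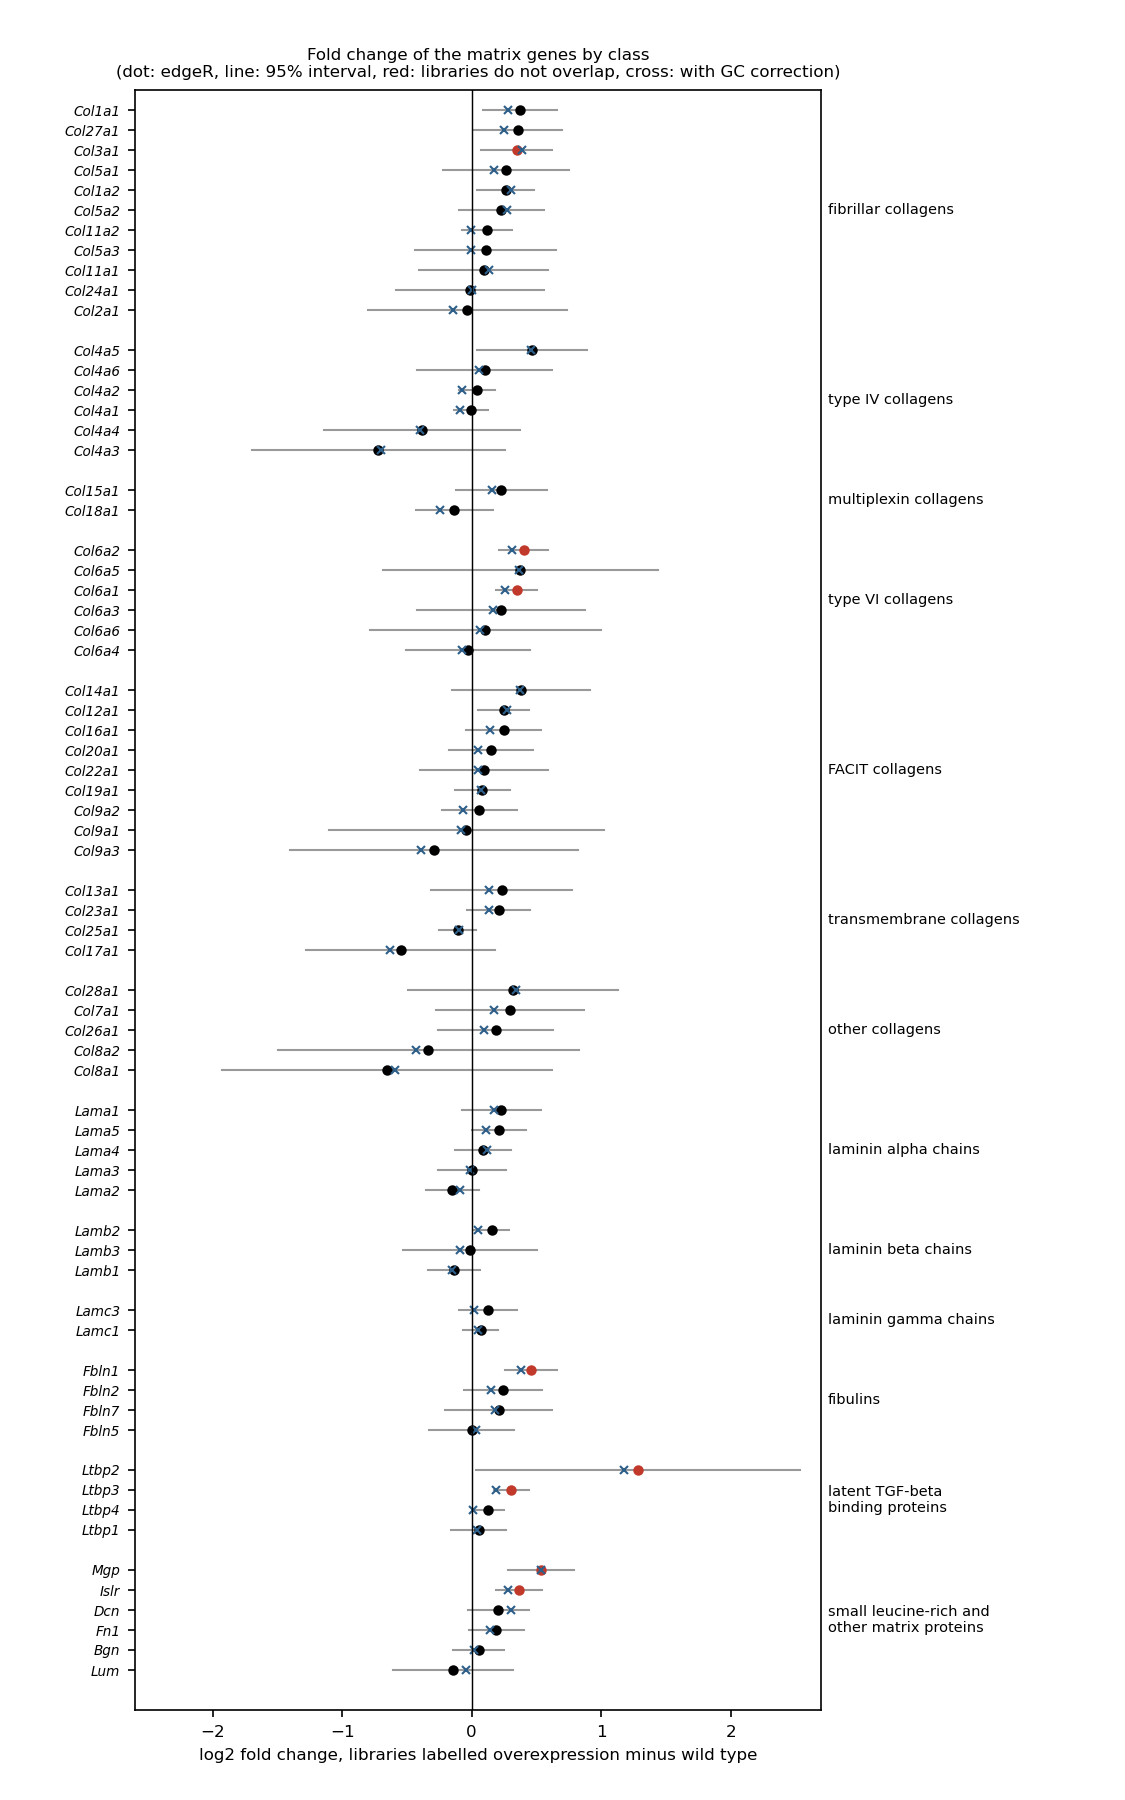
Log2 fold change of 67 matrix genes, libraries labelled overexpression minus wild type, by class (dot: edgeR estimate, line: 95% interval, cross: estimate with GC correction; red dots mark the 8 genes whose libraries do not overlap). Most dots lie right of 0, and type VI collagens, fibulins and latent TGF-beta binding proteins hold 5 of the 8 red ones.

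Fibrillar collagens build the fibres of connective tissue. Of their 11 genes 9 were above 0, with a median log2 fold change of 0.23, and 0.18 with the GC correction. Col1a1 and Col1a2 encode the chains of type I collagen, the main fibre of the meninges and large vessel walls. Col1a1 stood at 18.6, 17.5, 14.8 and 19.2 CPM in overexpression replicates 1 to 4 and at 11.1, 12.2, 18.1 and 12.5 CPM in wild type (log2 fold change 0.38, SE 0.13, edgeR adjusted p = 0.36). Wild-type replicate 3 lay among the overexpression libraries while the other 3 lay below all of them. Col1a2 stood at 41.1, 32.0, 35.5 and 37.7 CPM against 25.5, 31.1, 37.2 and 28.2 CPM (log2 fold change 0.26, SE 0.10, edgeR adjusted p = 0.40), with the same library high in wild type. Without wild-type replicate 3 the log2 fold change of Col1a1 was 0.55 and that of Col1a2 was 0.37. Without wild-type replicate 1 they were 0.29 and 0.19, and with the GC correction Col1a1 was at 0.28.

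Col3a1 encodes type III collagen, which forms fine fibres with type I in vessel walls. It lies on chromosome 1 at 45311538 to 45349706 of GRCm38. Its level was 6.73, 7.54, 6.35 and 6.39 CPM against 5.52, 4.63, 5.75 and 5.31 CPM (log2 fold change 0.35, SE 0.13, edgeR adjusted p = 0.38), and the groups did not overlap. Counts of Col3a1 are uncertain where 141 of its exonic bases coincide with another annotated gene on the same strand. The fibrillar collagen gene with the highest level per length was Col11a2, at 3.27 ± 0.398 CPM per kilobase (SD, n = 8). Its group means, 23.4 ± 3.80 CPM against 21.6 ± 0.894 CPM (SD, 4 libraries each), correspond to a log2 fold change of 0.12, and -0.0063 with the GC correction. Without overexpression replicate 4 it was 0.002. The remaining members, Col27a1, Col5a1, Col5a2, Col5a3, Col11a1, Col24a1 and Col2a1, had values from -0.03 to 0.36.

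Type IV collagen forms the network of all basement membranes, and its 6 genes lie as head-to-head pairs on chromosomes 1, 8 and X. Col4a1 and Col4a2, the chains of the common vessel network, start 21 bases apart on opposite strands of chromosome 8 in GENCODE. The sequence below is the RefSeq window (GRCm38.p6) of 250 bases before and 50 after the start of Col4a2, shown because 78 of its bases are shared with the window of Col4a1. Capitals mark the motifs named above.
Col4a2 (chr8:11312555-11312854, plus strand): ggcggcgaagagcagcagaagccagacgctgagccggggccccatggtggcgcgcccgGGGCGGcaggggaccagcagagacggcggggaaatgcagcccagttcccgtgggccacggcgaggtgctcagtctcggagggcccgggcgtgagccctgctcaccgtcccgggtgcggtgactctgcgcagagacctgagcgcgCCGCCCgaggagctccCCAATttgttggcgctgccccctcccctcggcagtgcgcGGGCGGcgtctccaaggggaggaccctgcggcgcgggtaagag
It holds 1 match to CCAAT, 3 to GGGCGG and 0 to TATAAA or CAGACA, and 73.7% of its bases are G or C. The ratio of Col4a1 to Col4a2 in CPM kept between 0.727 and 0.940.

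Col4a1 stood at 48.0, 48.1, 46.3 and 42.9 CPM in the libraries labelled overexpression and at 42.9, 46.6, 50.8 and 45.1 CPM in wild type. Its fold change of -0.0019 (log2, SE 0.063) had a 95% interval from -0.13 to 0.13. Col4a2 stood at 53.8, 51.3, 53.7 and 59.0 CPM against 50.8, 49.5, 61.4 and 50.0 CPM (log2 fold change 0.04, SE 0.068, edgeR adjusted p = 0.86, 95% interval -0.10 to 0.18). The groups overlapped for both genes. Col4a5, an X-linked chain, had the lowest p of the class (4.90, 5.25, 5.72 and 4.45 CPM against 2.61, 2.65, 5.53 and 3.88 CPM, log2 fold change 0.47, SE 0.20, edgeR adjusted p = 0.43), with wild-type replicate 3 inside the overexpression range. Its neighbour Col4a6 had a log2 fold change of 0.10 (SE 0.25). Over the class, 3 of 6 genes were above 0 with a median of 0.02, and the difference between chains was not tested.

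The multiplexin collagens sit in vascular basement membranes and release anti-angiogenic fragments. Col15a1 was at 5.56, 6.07, 4.76 and 6.17 CPM against 3.14, 5.85, 4.87 and 5.35 CPM (log2 fold change 0.23, SE 0.17, edgeR adjusted p = 0.64). Col18a1 was at 6.06, 6.42, 6.84 and 7.83 CPM against 6.66, 5.98, 7.50 and 9.63 CPM (log2 fold change -0.13, SE 0.14, edgeR adjusted p = 0.77). Both pairs of groups overlapped. Col15a1 was at 0.074 without wild-type replicate 1, and Col18a1 at -0.24 with the GC correction and at 0.015 without wild-type replicate 4.

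Type VI collagen is assembled from the products of Col6a1, Col6a2 and a further chain, usually Col6a3, and links basement membranes to the surrounding fibres. Col6a1 (ENSMUSG00000001119, chromosome 10 at 76708792 to 76726168) stood at 34.9, 36.2, 32.6 and 39.2 CPM in overexpression replicates 1 to 4 and 29.0, 24.2, 29.2 and 29.9 CPM in wild type. The means were 35.7 ± 2.75 CPM against 28.1 ± 2.64 CPM (SD, 4 libraries each, log2 fold change 0.35, SE 0.077, edgeR adjusted p = 0.17). Col6a2 (ENSMUSG00000020241, chromosome 10 at 76595762 to 76623630) stood at 19.1, 16.1, 19.2 and 17.8 CPM against 13.3, 13.2, 15.1 and 13.1 CPM (log2 fold change 0.40, SE 0.091, edgeR adjusted p = 0.17). For both genes the lowest library labelled overexpression lay above the highest wild-type library, by 9.12% for Col6a1 and 6.28% for Col6a2. The class as a whole had 5 of 6 genes above 0, a median log2 fold change of 0.29 and 5 of 6 above 0 with the GC correction. The pair lies on 1 strand, with starts 102538 bases apart.

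Col6a3 was less even between libraries, which ranged from 3.47 to 8.42 CPM in the group labelled overexpression and from 2.95 to 6.38 CPM in wild type (log2 fold change 0.23, SE 0.29, edgeR adjusted p = 0.81). Without overexpression replicate 4 its log2 fold change was -0.065. Its interval, -0.42 to 0.87, holds the estimates of Col6a1 and Col6a2, and the difference between the chains was not tested. The alternative chains Col6a4, Col6a5 and Col6a6 were rare, at 0.0860 to 0.259 CPM per kilobase, with log2 fold changes of -0.03 to 0.38. With the GC correction Col6a1 was at 0.26 (edgeR adjusted p = 0.67) and Col6a2 at 0.31 (edgeR adjusted p = 0.67).

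The collagens that attach to fibres (FACIT class) had 7 of 9 genes above 0 and a median of 0.0962. Col12a1, found in meninges and dense connective tissue, had the lowest p (21.1, 24.4, 19.6 and 26.2 CPM against 21.9, 18.9, 17.3 and 18.6 CPM, log2 fold change 0.25, SE 0.095, edgeR adjusted p = 0.38). Col14a1, Col16a1, Col20a1, Col22a1, Col9a1 and Col9a2 had values from -0.04 to 0.38. Col19a1, which is also made by cortical interneurons, had group means of 16.5 ± 2.72 CPM against 15.6 ± 0.821 CPM (SD, 4 libraries each) and a log2 fold change of 0.0821 with a 95% interval of -0.13 to 0.30, and -0.027 without overexpression replicate 4. Among transmembrane collagens, the neuronal gene Col25a1 was the highest per length, at a mean of 53.8 CPM in wild type. It stood at 47.0, 48.5, 51.7 and 52.3 CPM against 52.9, 61.3, 46.5 and 54.3 CPM (log2 fold change -0.11, SE 0.069, edgeR adjusted p = 0.58), with overlapping groups. Col23a1, of the same class, stood at 11.2, 10.4, 8.66 and 10.3 CPM against 9.04, 10.1, 8.23 and 7.80 CPM (log2 fold change 0.21, SE 0.12, edgeR adjusted p = 0.53), and was at 0.13 with the GC correction. Col17a1, a collagen of hemidesmosomes, was rare and below 0 (log2 fold change -0.55, SE 0.35, from 1.28 CPM in wild type), and Col13a1 was at 0.23.

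Wild-type replicate 4 set the estimates of 5 collagens. Col8a1 and Col8a2 encode the short chains of type VIII collagen, a network under epithelia and endothelia. Col8a1 stood at 3.65, 2.52, 3.16 and 4.07 CPM under the overexpression label, against 2.81, 3.46, 3.12 and 11.7 CPM in wild type. Col8a2 stood at 3.88, 4.59, 4.60 and 5.79 against 3.56, 2.86, 5.11 and 12.2 CPM. Col9a3, a FACIT chain and the highest of its class per length, stood at 7.96, 10.3, 7.92 and 9.83 against 5.95, 6.32, 9.83 and 21.8 CPM. In each, wild-type replicate 4 was the highest of the 8 libraries, and the other 7 overlapped between the groups.

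Col4a3 (0.624, 0.662, 0.365 and 1.60 CPM in wild type) and Col4a4 (0.735, 0.897, 1.09 and 2.77 CPM), named after their values were seen, had the same library on top. In that library the choroid plexus gene Ttr, which encodes transthyretin, stood at 982 CPM, against 2.41 to 90.8 CPM in the other 7, and Kl at 67.9 CPM against 2.56 to 8.26 CPM. All 12 choroid plexus markers were tested, and 0 passed in edgeR or had an unadjusted p under 0.05, with a value above 0 for 0 of 12. With wild-type replicate 4 the log2 fold changes were -0.65 for Col8a1, -0.33 for Col8a2, -0.29 for Col9a3, -0.72 for Col4a3 and -0.38 for Col4a4. Without it they were 0.099, 0.29, 0.29, -0.15 and 0.21. Overexpression replicate 3 and wild-type replicate 3, with 90.6 and 90.8 CPM of Ttr, lay among the other libraries for Col8a1. Within wild type, replicate 3 came next below replicate 4 for Col8a2, Col9a3 and Col4a4, and was the lowest for Col4a3. Within the overexpression group, replicate 3 was the lowest for Col9a3 and lay among the others for Col8a2. The part of choroid plexus RNA in these values was not tested. The collagens outside the larger classes, Col7a1 of anchoring fibrils, Col26a1 and Col28a1, were at 0.29, 0.19 and 0.32, and their groups overlapped.

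**Figure D4:**
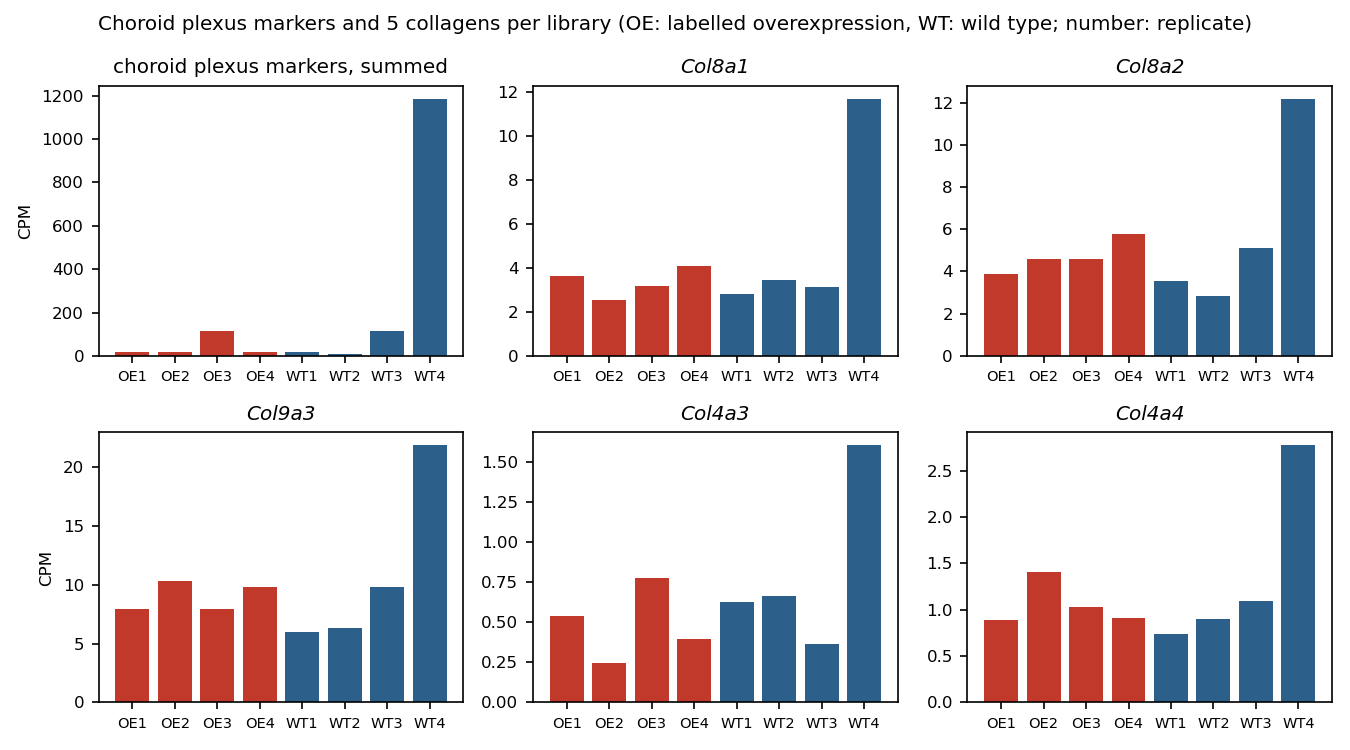
Summed CPM of 12 choroid plexus markers and CPM of Col8a1, Col8a2, Col9a3, Col4a3 and Col4a4 in each library (bars; red labelled overexpression, blue wild type, numbered by replicate). Wild-type replicate 4 is the highest in every panel.

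Laminins are trimers of an alpha, a beta and a gamma chain, and the alpha chain sets which receptors they bind. Values above 0 were found for 4 of 5 alpha and 1 of 3 beta chains, and with the GC correction for 3 of 5 and 1 of 3. Of the alpha chains, Lama5, which marks mature vessel basement membrane, had the highest level per length (1.71 ± 0.238 CPM per kilobase, SD, n = 8). It stood at 19.9, 20.8, 21.6 and 21.2 CPM against 15.7, 16.7, 22.9 and 16.7 CPM (log2 fold change 0.21, SE 0.10, edgeR adjusted p = 0.46), and wild-type replicate 3 was the highest of all 8. With the GC correction Lama5 was at 0.11. Lama2, of astrocyte endfeet and pericytes, had group means of 18.3 ± 1.70 CPM against 20.2 ± 2.85 CPM (SD, 4 libraries each) and a log2 fold change of -0.15 (SE 0.0980). Lama4, an endothelial chain, was at 0.0879 and Lama1 at 0.23. Lama3 had a 95% interval of -0.26 to 0.27.

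Lamb2 was the leading beta chain, at 8.95 ± 0.825 CPM per kilobase against 1.86 ± 0.229 for Lamb1 and 0.293 ± 0.0613 for Lamb3 (SD, n = 8). Lamb2 stood at 60.9, 51.9, 57.3 and 59.4 CPM against 46.6, 53.6, 56.8 and 49.1 CPM (log2 fold change 0.15, SE 0.066, edgeR adjusted p = 0.41), with overlapping groups, and at 0.0494 with the GC correction. Lamb1, whose highest library was wild-type replicate 4 at 23.5 CPM, had a log2 fold change of -0.14 (SE 0.0976). Lamc1, the common gamma chain, stood at 51.0, 56.7, 44.9 and 52.8 CPM against 46.8, 50.5, 51.1 and 47.2 CPM (log2 fold change 0.07, SE 0.066, edgeR adjusted p = 0.72). Lamc3 was at 0.12, and Lamb3, a chain of epithelia like Lama3, at -0.01.

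The fibulins had the member with the lowest p of all. Fbln1 (ENSMUSG00000006369, chromosome 15 at 85205949 to 85286535), whose product is a glycoprotein of basement membranes and elastic fibres, stood at 19.8, 18.4, 15.7 and 16.1 CPM in overexpression replicates 1 to 4. In wild type it stood at 12.7, 11.9, 14.0 and 12.4 CPM, so that the groups did not overlap. The means were 17.5 ± 1.96 CPM against 12.7 ± 0.915 CPM (SD, 4 libraries each, log2 fold change 0.46, SE 0.097, edgeR adjusted p = 0.16), and the DESeq2 adjusted p was 0.0093. With the GC correction the log2 fold change was 0.38 (edgeR adjusted p = 0.52), and without replicates 2 and 3 it was 0.49. Fbln2, Fbln7 and Fbln5 were at 0.24, 0.21 and 0.0012 (SE 0.14, 0.20 and 0.16), and their groups overlapped. Without overexpression replicate 4, Fbln2 was at 0.087 and Fbln7 at 0.034. The value of Fbln5, whose product helps elastic fibres form, was at or below 0 with DESeq2's scaling (-2.0e-04).

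The latent TGF-beta binding proteins had 4 of 4 genes above 0, 4 of 4 with the GC correction, and a median of 0.22. Ltbp3 (ENSMUSG00000024940, chromosome 19 at 5740904 to 5758532), which escorts TGF-beta out of the cell, stood at 41.4, 37.3, 39.9 and 43.2 CPM against 31.2, 32.1, 32.7 and 34.9 CPM, with no overlap (log2 fold change 0.31, SE 0.066, edgeR adjusted p = 0.17, and DESeq2 adjusted p = 0.013). It is one of the GC-richer members, at 60.3%, and its log2 fold change was 0.19 with the GC correction (edgeR adjusted p = 0.9999). Ltbp4, with 62.2% GC, stood at 112, 97.0, 97.3 and 105 CPM against 90.1, 90.1, 104 and 91.3 CPM (log2 fold change 0.13, SE 0.059, edgeR adjusted p = 0.44), and at 0.01 with that correction. Ltbp1 was at 0.0553 (SE 0.10).

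Ltbp2 had the largest estimate of the 68 and the fewest counts. It held 34, 23, 52 and 32 counts under the overexpression label, against 0, 20, 24 and 10 in wild type, or 0.654, 0.475, 0.860 and 0.633 CPM against 0, 0.427, 0.438 and 0.198 CPM. The groups did not overlap (log2 fold change 1.28, SE 0.60, edgeR adjusted p = 0.46, 95% interval 0.03 to 2.54). Its exons share 764 bases with a gene on the opposite strand, and whether the authors' counting kept the strands apart is unknown.

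Mgp encodes matrix Gla protein, an inhibitor of calcification made by vascular and perivascular cells. It (ENSMUSG00000030218, chromosome 6 at 136872435 to 136875823) stood at 9.65, 10.7, 9.54 and 8.34 CPM in overexpression replicates 1 to 4 and at 6.79, 5.64, 6.51 and 7.39 CPM in wild type. The groups did not overlap, and the means were 9.57 ± 0.980 CPM against 6.58 ± 0.728 CPM (SD, 4 libraries each, log2 fold change 0.54, SE 0.12, edgeR adjusted p = 0.18). Mgp has 50.2% GC, near the median of all genes, and stood at 0.53 with the GC correction (edgeR adjusted p = 0.31). Islr (ENSMUSG00000037206, chromosome 9 at 58156268 to 58204306), a leucine-rich repeat gene of mesenchymal cells, stood at 28.7, 26.3, 23.7 and 23.5 CPM against 17.3, 21.8, 20.5 and 19.7 CPM, again without overlap (log2 fold change 0.37, SE 0.087, edgeR adjusted p = 0.20). With the GC correction Islr was at 0.28 (edgeR adjusted p = 0.88). Its exons share 181 bases with its neighbour Islr2 on the same strand, and its counts are uncertain for that stretch.

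Among these proteins and the small proteoglycans, 5 of 6 genes were above 0, with a median of 0.20 and 5 of 6 with the GC correction. Fn1, the fibronectin gene, stood at 119.7, 103, 97.0 and 97.9 CPM against 75.1, 98.1, 103 and 90.0 CPM (log2 fold change 0.19, SE 0.096, edgeR adjusted p = 0.51), with wild-type replicate 1 lowest and overexpression replicate 1 highest. The small proteoglycan genes Dcn, Bgn and Lum, whose products coat collagen fibres, had log2 fold changes of 0.20, 0.0531 and -0.14 (SE 0.11, 0.0950 and 0.22). Dcn and Lum lie side by side on chromosome 10, with starts 85519 bases apart, and Dcn was 3.56 to 7.30 times higher in CPM over the 8 libraries.

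**Figure D5:**
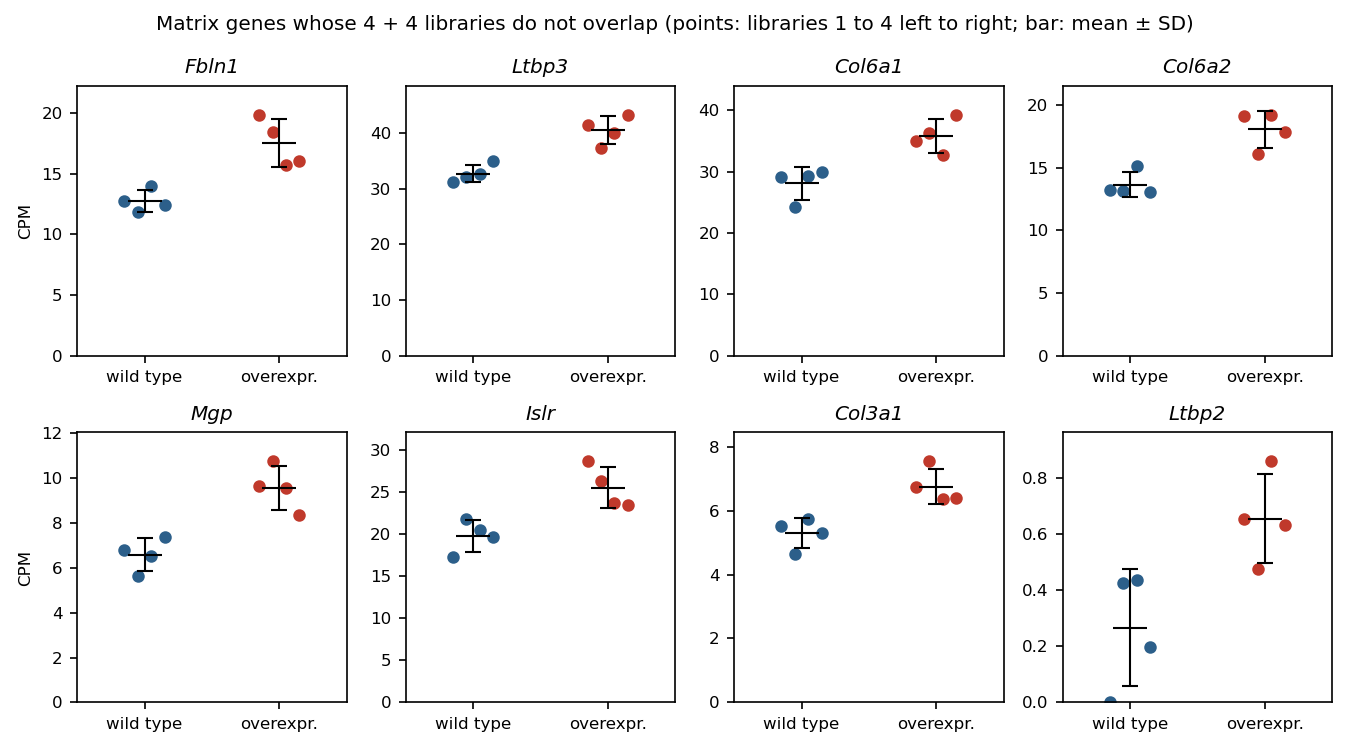
CPM per library of the 8 matrix genes whose libraries labelled overexpression (red) all lie above the wild-type libraries (blue); bars give the mean ± SD of 4 libraries and axes start at 0. Fbln1 and Mgp have the widest gaps, 12.4% and 13.0% between the nearest libraries.

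The genes around the matrix proteins were taken from 7 lists of enzymes, linkers, receptors and the neural matrix. Of 112 genes listed 108 were tested, and 0 passed in edgeR, DESeq2 or limma-voom. At an unadjusted p under 0.05 there were 12 with values above 0 and 5 below (5.24% and 5.43% of all genes). Among 20 tested genes of collagen maturation, the crosslinking oxidase gene Loxl3 stood at 5.20 ± 0.333 CPM against 3.65 ± 0.169 CPM (SD, 4 libraries each, log2 fold change 0.51, SE 0.15, edgeR adjusted p = 0.31), without overlap, while the hydroxylase gene P4ha1 was at -0.17 and the procollagen proteinase gene Bmp1 at 0.18. Loxl3 shares 535 exonic bases with a gene on the opposite strand. Of the receptors, the fibronectin receptor gene Itga5 stood at 5.76 ± 0.725 CPM against 3.84 ± 0.778 CPM (log2 fold change 0.59, SE 0.17, edgeR adjusted p = 0.31), also without overlap, and the collagen receptor gene Ddr1 was at 0.15. The list of 19 receptors had 10 values above 0, close to the share of all genes.

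Elastic fibre genes had 9 of 9 tested values above 0 and a median of 0.22, with Efemp1 at 0.28 and Efemp2 at 0.30. With the GC correction that median was 0.15. Basement membrane linkers had 7 of 10 above 0, among them the netrin gene Ntn1 (log2 fold change 0.25, SE 0.083, edgeR adjusted p = 0.31) without overlap. The proteases and their inhibitors had 12 of 17 above 0 and a median of 0.0420. In the perineuronal net and brain interstitial matrix, 7 of 13 were above 0, with the brevican gene Bcan at 0.16 and the tenascin gene Tnr at -0.16, where all 4 libraries labelled overexpression lay below wild type. The TGF-beta list had 16 of 20 above 0 with a median of 0.0303, and its matricellular targets pointed apart, Ccn2 at 0.26 (SE 0.0936) and Ccn1 at -0.46 (SE 0.17). Ccn1 and the signal transducer gene Smad2 (-0.17) also lay below wild type without overlap. Over the 7 lists, with 108 genes tested, 3 genes were thus wholly above wild type (Loxl3, Itga5 and Ntn1) and 3 wholly below. Of all genes, 2.82% lay wholly above and 3.02% wholly below.

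Markers of the cell types that make these proteins, none of them members, were summed per library. Leptomeningeal fibroblast markers summed to 116 to 148 CPM in the overexpression group and 108 to 144 CPM in wild type, so the groups overlapped, and 9 of 16 genes were above 0. Their list had a median log2 fold change of 0.0596, and 0.0181 with the GC correction. Within that list Slc47a1, a transporter gene, stood at 8.92, 7.54, 4.99 and 8.21 CPM against 5.55, 4.36, 4.34 and 2.89 CPM (log2 fold change 0.79, SE 0.19, edgeR adjusted p = 0.26), and the transcription factor gene Foxc2 at 2.88, 3.47, 2.05 and 1.50 against 0.936, 1.41, 1.08 and 2.14 CPM (log2 fold change 0.83, SE 0.29, edgeR adjusted p = 0.34). Both were named after their values were seen, and wild-type replicate 1 overlapped the overexpression range of Slc47a1, as wild-type replicate 4 did that of Foxc2. Slc47a1 was called by DESeq2 (adjusted p = 0.031), the 1 marker of 90 tested that was, where 0.317% of all genes with an adjusted p were. Mural cell markers summed to 399 to 431 CPM in the overexpression group and 391 to 474 CPM in wild type, and endothelial markers to 378 to 414 CPM in the overexpression group and 375 to 455 CPM in wild type. Of these, 3 of 10 mural and 7 of 13 endothelial markers had values above 0. The pericyte gene Rgs5, the only one of both lists without overlap, stood below wild type in all 4 libraries (log2 fold change -0.17, SE 0.052, edgeR adjusted p = 0.31). Of all genes tested, 3.02% lay wholly below in the same way. The smooth muscle marker Tagln held 2 to 10 counts and was not tested; 1349 of its 1988 exonic bases coincide with genes on the opposite strand. Of the 3 lists 0 genes passed in edgeR, and the unadjusted p was under 0.05 for 4 genes above 0 and 2 below (5.24% and 5.43% of all genes). Wild-type replicate 3, in which type I collagen and Lama5 were high for its group, also had the highest mural sum and the highest endothelial sum, and blood markers summed to 232 CPM there against 108 to 148 CPM elsewhere. The part of vessel content in the matrix values was not tested.

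Marker sums of the other cell types overlapped between the groups. Microglial markers summed to 365 to 447 CPM in the overexpression group and 351 to 399 CPM in wild type, astrocyte markers to 5461 to 6278 CPM in the overexpression group and 5498 to 6429 CPM in wild type, and oligodendrocyte markers to 4202 to 6100.0 CPM in the overexpression group and 5049 to 6069 CPM in wild type. Excitatory neuron markers summed to 8379 to 9635 CPM in the overexpression group and 7846 to 9439.7 CPM in wild type, and interneuron markers to 719 to 799 CPM in the overexpression group and 721 to 792 CPM in wild type. The 7 microglial markers had a median log2 fold change of 0.14, and 0.12 with the GC correction, beside 0.14 and 0.0852 for the matrix genes. Only 4 of the 7 were above 0, and 0 passed in edgeR, DESeq2 or limma-voom. The unadjusted p was under 0.05 for 3 with a value above 0, where 5.24% of all genes were in that class. These were Csf1r, Tmem119 and Cx3cr1, named after their values were seen. It was under 0.05 for 0 with a value below 0, where 5.43% were. The part of microglia in the matrix values was not tested. No marker of any of the 10 lists was at 0 in all libraries.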

How the data were processed

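Poly(A) RNA was sequenced as strand-specific libraries, per the labels' protocols. The table deposited by the authors holds raw read counts per Ensembl gene. Per the submitters' processing notes, the tools were Trimmomatic 0.39, STAR 2.7.10 and featureCounts 2.0.3, with mm10 and GRCm38 as builds. The strand setting, order of steps and annotation are unknown. Of 68 members, 4 share exonic bases with a gene on the same strand and 15 with one on the opposite strand, where counts are uncertain. Symbols, positions, merged exon lengths and GC content came from GENCODE M21 (GRCm38), which matched 54409 identifiers and left 37 without a symbol.

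Groups came from the sample titles. filterByExpr kept 17636 genes, the 68 members among them, and libraries were scaled by TMM. Groups were compared with edgeR 4.0.16 (R 4.3.3), using quasi-likelihood F tests with robust dispersions, and a Benjamini-Hochberg adjusted p under 0.05 over all genes. Standard errors are the fold change divided by the root of F. The procedure was checked on simulated data. No library is a copy of another (lowest chi-square per degree of freedom 9.53). Alternatives were RLE and upper-quartile scaling, no filter, a filter of 1 CPM in 4 or more libraries, limma-voom (limma 3.58.1), DESeq2 1.42.0, the replicate number as a block, dispersions without robust estimation, a GC correction (spline with 5 degrees of freedom of log2 CPM on transcript GC, as an offset), and leaving out each library or overexpression replicates 2 and 3. Promoters are RefSeq's. Values in every library are given for the 8 members with the lowest p, up to 8 whose groups do not overlap, and the lowest p and highest level per length of each class; other members named with their values (Col1a2, Col4a1, Col4a3, Col4a4, Col6a3, Col19a1, Fn1 and others) lie outside that rule. The values of 1 member are not reported here, although it is counted with the others. The members, lists and alternatives were chosen with earlier results of these data known. Counts limit the precision of low genes, and 7 members lay under 1 CPM.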

Additional observations from a re-analysis of the deposited data

Results flagged for a closer look

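Groups of 4 libraries in which the highest or lowest stood far from the rest (Dixon's test at 0.829) were found in 16 of 156 groups checked, 68 members and 10 marker sums in each group. Chance gives about 1 in 20 for independent groups. These groups come from the same libraries and are not independent, so the share flagged was not tested against that rate. Among wild-type libraries, replicate 3 stood high for Col6a2 (15.1 CPM), Ltbp4 (104 CPM), Lama5 (22.9 CPM), Col4a2 (61.4 CPM), Col6a6 (1.46 CPM), Lama3 (9.03 CPM) and the summed blood markers (232 CPM). Replicate 2 stood low for Col6a1 (24.2 CPM) and Fbln2 (5.17 CPM). Replicate 4 stood high for Col8a1 (11.7 CPM) and for the summed choroid plexus markers (1186 CPM). Among the libraries labelled overexpression, replicate 4 stood high for Fbln2 (9.10 CPM), Col17a1 (1.54 CPM) and Col5a1 (18.1 CPM). Replicate 3 stood high for the choroid plexus markers (116 CPM) and replicate 1 low for the oligodendrocyte markers (4202 CPM). Of the 8 members without overlap, Col6a1 and Col6a2 are in this list, each through 1 wild-type library: without it the log2 fold change was 0.28 for Col6a1 and 0.46 for Col6a2.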

How the results depend on the processing

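No matrix gene passed in edgeR's test with the filter, under either other scaling, with at least 1 CPM, without robust estimation, with the GC correction, with limma-voom, without overexpression replicates 2 and 3, or with any library left out (0 to 0 calls). DESeq2 called 6 members and edgeR without the low-count filter 8; at an unadjusted p under 0.05 there were 17. The cause was not tested. All genes called numbered 6, against 83 without the filter, 44 with DESeq2, 2 with limma-voom, 2 without robust estimation, 1883 at an unadjusted p, 1 without overexpression replicates 2 and 3, and 1 to 8 with 1 library left out. With the replicate number as a block there was 1 call over all genes and 0 among members. Deviations of same-numbered libraries had correlations of -0.0426, -0.0259, 0.0744 and 0.0485, and those of differently numbered ones ran from -0.19 to 0.15. So few pairs cannot show whether same-numbered libraries share more than a number. Of 449 values of the 25 members named by rule under 18 alternatives, 428 kept their direction and side of the threshold, 14 newly passed and 7 reversed. With the GC correction Col11a2 was at -0.0063 and Col4a2 at -0.073 (log2), below 0. With 1 library left out Col4a2 ran from -0.0012 to 0.12, Col18a1 from -0.23 to 0.015, Col8a1 from -0.86 to 0.099, Col8a2 from -0.57 to 0.29 and Col9a3 from -0.49 to 0.29. The sign turned without overexpression replicate 4 for Col4a2 and without wild-type replicate 4 for the other 4 genes. Of all 68 members, 22 turned sign with at least 1 library left out. The median of the members ran from 0.0748 to 0.17 and the number above 0 from 45 to 57 with 1 library left out.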
